A study of Mus musculus with 16 samples.

Results

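The BPI fold genes (Bpif) encode secreted proteins that bind lipids and are known from the mucus and glands of the nose, mouth and airways. The 9 genes examined here were Bpifa1, Bpifb1, Bpifb2, Bpifb3, Bpifb4, Bpifb5, Bpifb6, Bpifb9a and Bpifb9b. They were taken by symbol, and all 9 were found in both the count tables and the RPKM tables, out of 24407 genes with counts. The members passing a filter on low counts numbered 7, among 16507 genes tested, whereas Bpifb2 and Bpifb6 did not pass. The questions were which members the vomeronasal organ (VNO) expressed, and whether their levels moved together over libraries and lines.

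Libraries were made from the VNO of 12-week-old mice of generation 88, bred from the outbred Hsd:ICR stock. The High Runner (HR) lines 3, 6, 7 and 8 were selected for voluntary wheel running, and the Control lines 1, 2, 4 and 5 were bred without that selection. Each line gave 1 male and 1 female library, and each library pooled the VNOs of 3 mice. The 16 libraries held 15998552 to 70875276 counts on genes, with a median of 37366329. Single mice were not measured, so the spread reported here lies between pools. Male and female libraries came from separate tables, so sex cannot be told apart from whatever else differed between those tables. The tissue label was compared with Omp, which within the VNO marks mature sensory neurons and reached 19867 to 161242 counts per library. Levels of Omp in other tissues were not compared. The ion channel gene Trpc2 stood at 0 counts in every library but averaged 329 RPKM, and Hba-a1 of red blood cells likewise stood at 0 counts but at 115 RPKM, so neither gene could be judged from counts.

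BPI fold proteins share their shape with Bpi, which binds bacterial lipopolysaccharide, and with Lbp and Pltp, which carry lipids in plasma. Bpifa1 (SPLUNC1) and Bpifb1 (LPLUNC1) are abundant in airway and nasal secretions, where they are linked to host defence. Bpifb3 and Bpifb4 were first described from olfactory epithelium, and Bpifb9a is annotated as vomeromodulin, a product of nasal glands. In bulk tissue, fewer gland cells and less RNA per gland cell cannot be told apart.

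All 9 members lay in one cluster on chromosome 2 (GRCm38, GENCODE M21), which held 13 Bpif genes in 445.6 kb from 153875045 to 154320646, each on the plus strand and none overlapping another annotated gene. Their order was Bpifb2 (chr2:153875045-153895270), Bpifb6 (chr2:153900388-153912795), Bpifb3 (chr2:153918230-153932996), Bpifb4 (chr2:153938212-153964101), then Bpifa1 (chr2:154142880-154149219), Bpifb1 (chr2:154190818-154220369), Bpifb5 (chr2:154223742-154240902), Bpifb9a (chr2:154257854-154271245) and Bpifb9b (chr2:154307227-154320646). The promoters of the most abundant member, Bpifa1, and of its silent neighbour Bpifa5 (chr2:154162607-154168450, at most 3 counts in a library) are shown first, because they aligned with 74.74% identity over 289 bases and held the same motifs although the genes differed in level. Each stretch covers 250 bases before the start to 50 after it on the plus strand (RefSeq, GRCm38.p6, chr2:154142630-154142929 and chr2:154162357-154162656). Capitals mark the letters TATAAA, the TATA box, and TGACTCA, an AP-1 site.
Bpifa1: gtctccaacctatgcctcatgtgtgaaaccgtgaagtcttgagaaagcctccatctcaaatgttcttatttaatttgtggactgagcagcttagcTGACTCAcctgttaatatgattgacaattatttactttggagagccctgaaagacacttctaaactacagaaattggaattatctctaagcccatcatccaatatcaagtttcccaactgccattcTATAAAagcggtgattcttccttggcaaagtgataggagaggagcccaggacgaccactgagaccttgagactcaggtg
Bpifa5: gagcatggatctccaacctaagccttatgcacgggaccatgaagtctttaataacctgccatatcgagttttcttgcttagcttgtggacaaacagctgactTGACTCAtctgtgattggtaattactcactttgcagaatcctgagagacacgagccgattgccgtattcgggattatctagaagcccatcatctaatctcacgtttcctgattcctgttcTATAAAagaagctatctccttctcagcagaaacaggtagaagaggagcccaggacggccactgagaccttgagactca

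Counted with the start base as 0, TATAAA stood at -29 to -24 in Bpifa1 and at -28 to -23 in Bpifa5, and TGACTCA at -155 to -149 and at -148 to -142. Over both strands of 32851 promoter windows of the same length, TATAAA occurred in 13.62% and TGACTCA in 5.2%. Among the 14 Bpif windows, 4 held TATAAA and 3 held TGACTCA. The forkhead core TGTTTAC (3.65% of windows) and the STAT core TTCCNGGAA (1.15%) occurred in none of the 14. These letters are matches in a window and carry no measurement of binding.

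Bpifb9a and Bpifb9b are near copies, which decided how their reads could be counted. Their longest coding transcripts differed at 14 of 2065 aligned bases (99.32% identity), of which 13 lay in coding sequences of 1776 bases each. The RefSeq starts used for their promoters lay 25 (Bpifb9a) and 17 (Bpifb9b) bases after the GENCODE starts, so motif positions of this pair depend on the annotation. The promoters aligned with 95.55% identity and both held TATAAA, at -54 to -49 in Bpifb9a and at -47 to -42 in Bpifb9b (RefSeq, GRCm38.p6, plus strand, chr2:154257629-154257928 and chr2:154306994-154307293, TATAAA in capitals).
Bpifb9a: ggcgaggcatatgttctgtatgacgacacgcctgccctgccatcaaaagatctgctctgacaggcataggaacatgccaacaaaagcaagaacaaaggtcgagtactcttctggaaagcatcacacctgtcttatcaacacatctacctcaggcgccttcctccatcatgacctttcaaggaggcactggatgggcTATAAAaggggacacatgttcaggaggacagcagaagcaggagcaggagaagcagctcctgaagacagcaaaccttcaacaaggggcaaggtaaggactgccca
Bpifb9b: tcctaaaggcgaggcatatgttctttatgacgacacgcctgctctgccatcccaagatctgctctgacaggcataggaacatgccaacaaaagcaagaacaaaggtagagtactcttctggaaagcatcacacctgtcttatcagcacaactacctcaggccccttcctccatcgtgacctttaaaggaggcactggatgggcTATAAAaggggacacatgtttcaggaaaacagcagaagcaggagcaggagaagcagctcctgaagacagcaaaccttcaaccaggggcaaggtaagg

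The stretch of 75 coding bases below, as long as a read of this study and taken from coding bases 95 to 169 of both genes (GENCODE M21 transcripts), is shown because its 3 differing bases, in capitals, are what assigns such a read to one gene.
Bpifb9a: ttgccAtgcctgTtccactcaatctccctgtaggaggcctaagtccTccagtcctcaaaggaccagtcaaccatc
Bpifb9b: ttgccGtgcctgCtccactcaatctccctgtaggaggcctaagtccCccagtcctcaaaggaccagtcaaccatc
Of all 75-base words of Bpifb9a transcripts, 45.97% occurred in no other gene's transcripts, and of those of Bpifb9b 38.43%. The rest were shared between the pair. Every word of the other members was their own. The authors kept reads that mapped to 1 place with no mismatch, so the counts of this pair rest on fewer than all of their reads, and their split is uncertain.

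Bpifa1 was the most abundant member in 14 of 16 libraries and Bpifb1 in the other 2 (HR line 3 male and Control line 5 female). Ordered by mean RPKM, which scales a count by transcript length, the members were Bpifa1 (258 ± 262, SD, n = 16 libraries), Bpifb1 (89.7 ± 186), Bpifb9b (19.4 ± 38.0), Bpifb3 (3.52 ± 8.52), Bpifb9a (2.73 ± 3.94), Bpifb5 (1.46 ± 1.64) and Bpifb4 (0.999 ± 1.72). Genes next to each other in this order differed by less than the larger of their SDs. The 14 Bpif genes together took 0.00185% (HR line 8 male) to 0.172% (HR line 3 male) of a library's counts.

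Bpifa1 was found in every library. In Control males of lines 1, 2, 4 and 5 it stood at 94.3, 29.9, 406 and 473 RPKM, and in Control females at 174, 74.8, 81.1 and 90.7 RPKM. In HR males of lines 3, 6, 7 and 8 it stood at 721, 738, 89.6 and 14.7 RPKM, and in HR females at 269, 694, 104 and 69.2 RPKM. Line 6 was high in both sexes, line 8 was low in both, and HR and Control libraries overlapped.

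Bpifb1 spanned the widest range, from 0.622 RPKM in the HR line 8 male to 750 RPKM in the HR line 3 male, or 1184-fold in CPM, counts scaled to library size. Control males of lines 1, 2, 4 and 5 stood at 1.47, 2.42, 69.8 and 73.6 RPKM, and Control females at 10.5, 3.38, 3.61 and 171 RPKM. HR males of lines 3, 6, 7 and 8 stood at 750, 181, 36.7 and 0.622 RPKM, and HR females at 107, 5.31, 15.6 and 3.07 RPKM. The male and female of line 6 were far apart for Bpifb1 and close for Bpifa1, and the groups overlapped.

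Bpifb3 was near the limit of detection in most libraries and high in a few males. It reached 29.9 RPKM in the Control line 5 male, 19.5 in the HR line 3 male, 2.26 in the Control line 4 male and 1.95 in the HR line 6 male. The other 12 libraries lay between 0 and 0.883 RPKM, and the HR line 8 female had 0 counts, which allows up to 3 counts. Bpifb4 was high in the same libraries, at 6.11 RPKM in the HR line 3 male and 4.43 in the Control line 5 male, and lay between 0.142 and 1.03 RPKM in the rest.

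Bpifb9b ranged from 0.313 RPKM in the HR line 8 male to 155 RPKM in the HR line 3 female, with a median of 5.81. Bpifb9a ranged from 0.0572 to 14.2 RPKM (HR line 8 male and Control line 1 female), with a median of 0.981. Bpifb5 ranged from 0.110 to 5.94 RPKM (HR line 8 male and HR line 3 female), with a median of 0.979. The lowest library of each of these members, and of Bpifa1 and Bpifb1, was thus the HR line 8 male. Bpifb2 gave 0 to 4 counts per library (10 in all) and Bpifb6 0 to 2 counts (8 in all), so levels and differences of this pair were not detectable at this depth.

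**Figure D1:**
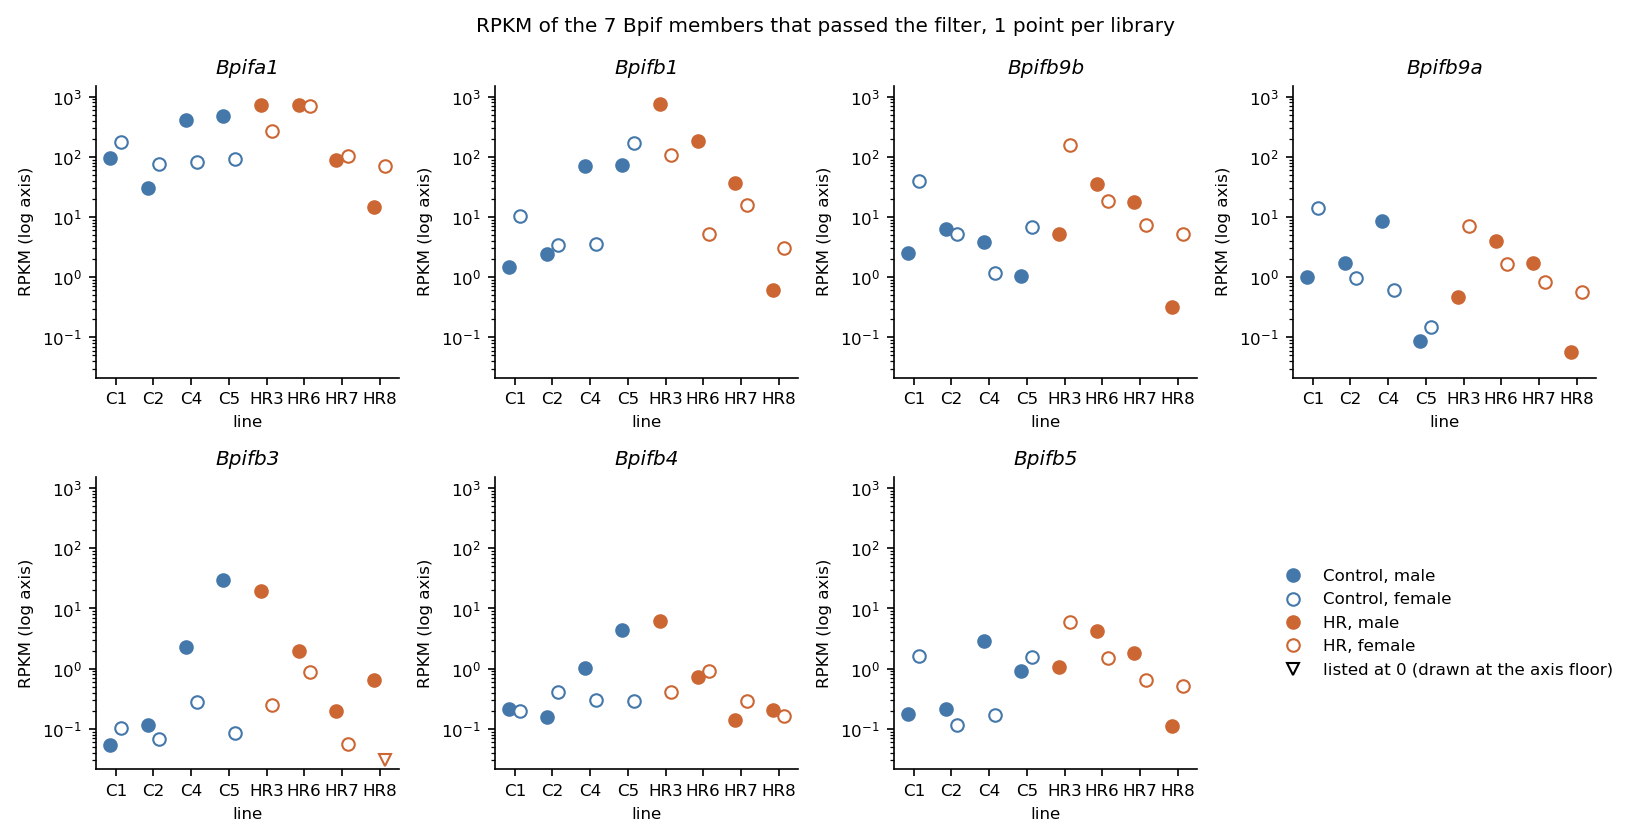
RPKM (log axis) of the 7 members that passed the filter, by line (C, Control), with 1 point per library, filled for males and open for females. Bpifa1 lay between 14.7 and 738 RPKM, and the high points of Bpifb3 and Bpifb4 were the males of Control line 5 and HR line 3.

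These genes varied between libraries far more than most genes. The SD of log2 CPM over the 16 libraries was 1.56 to 2.98 among the 7 members, against a median of 0.232 over all genes tested. Bpifb1 had the highest SD of the members (higher than 99.92% of genes tested) and Bpifb4 the lowest (98.78%). This spread was not particular to Bpif genes, as some other genes of nasal gland products had SDs within the members' range. These were Obp1a (2.32), Lcn4 (2.02), Obp2b (1.99), Obp2a (1.93), Lcn3 (1.89) and Lcn11 (1.65), and the rest of that list is not given here. The genes flanking the cluster did not share this spread: of the 5 protein-coding genes on either side, 9 were tested and their SDs had a median of 0.213 and a maximum of 0.473 (1700003F12Rik). Mapre1, a microtubule-binding protein gene before the cluster, had an SD of 0.0813.

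Whether the lines of a linetype differed was tested in edgeR over 6 contrasts of lines, with sex in the model. The test called 4714 of 16507 genes (28.6%), and 2 of the 7 members, which is the same share as the background. Bpifb3 was called (F = 6.80, adjusted p = 0.0225, Benjamini-Hochberg over all genes), as was Bpifb1 (F = 5.39, adjusted p = 0.0378). Bpifa1 (adjusted p = 0.0595 in edgeR), Bpifb4 (0.0757), Bpifb9a (0.181), Bpifb9b (0.265) and Bpifb5 (0.268) were not called. Mean RPKM of Bpifb1 was 428 in line 3, 123 in line 5, 93.4 in line 6, 36.7 in line 4, 26.1 in line 7, 5.996 in line 1, 2.90 in line 2 and 1.84 in line 8. Leaving out line 2 ended both calls (adjusted p = 0.0807 for Bpifb1 and 0.0572 for Bpifb3 in edgeR), and the call of Bpifb1 also ended without line 3, 5, 7 or 8 (0.0800, 0.0832, 0.0610 and 0.0856).

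Male and female libraries of a line gave an independent look at the same lines. Over the 8 lines, the male and female log2 CPM of Bpifa1 correlated at r = 0.647 (exact permutation p = 0.0768, Spearman's rho = 0.810, p = 0.0218, r = 0.475 without the 2 farthest lines). Bpifb1 gave r = 0.574 (exact permutation p = 0.145), and the other 5 members r = 0.142 to 0.349, against a median r of 0.508 over all genes tested. After adjustment over 9 Bpif genes, no listed member passed by Pearson's r (lowest adjusted p of a member 0.346, exact permutation).

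**Figure D2:**
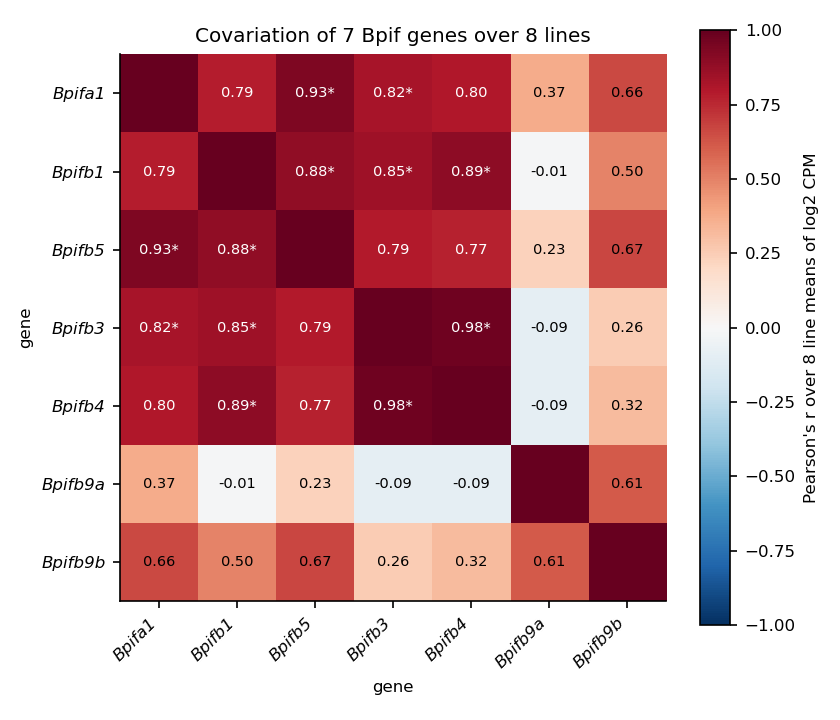
Pearson's r between the line means of log2 CPM for each pair of the 7 members (gene against gene, n = 8 lines, colour from -1 to 1), with * for adjusted p under 0.05 in the exact permutation test. Bpifa1, Bpifb1, Bpifb5, Bpifb3 and Bpifb4 gave r from 0.770 to 0.976 with each other, and Bpifb9a gave -0.0871 to 0.373 with them.

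Of the 10 pairs among Bpifa1, Bpifb1, Bpifb3, Bpifb4 and Bpifb5, 6 correlated over lines after adjustment, and no pair with Bpifb9a or Bpifb9b did. Male and female log2 CPM were averaged per line, and the 21 pairs of members were compared over 8 lines by exact permutation. The median r was 0.669, 18 pairs were positive, 10 passed p under 0.05 and 6 passed after adjustment over the 21 pairs. Against all other genes tested, each member's median r lay between -0.0476 and 0.00644, but high values were common: r exceeded 0.7 for 18.7% of these genes with Bpifb4, 18.1% with Bpifb3, 15.1% with Bpifb1, 9.98% with Bpifa1 and 7.20% with Bpifb5, and for 1.76% with Bpifb9a and 1.53% with Bpifb9b.

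The closest pair was Bpifb3 and Bpifb4 (r = 0.976, exact permutation p = 0.000645, adjusted p = 0.0135, rho = 0.833, p = 0.0154), which stand next to each other in the cluster, and r was 0.972 without the 2 lines farthest from the median of Bpifb3. Bpifa1 and Bpifb5 gave r = 0.933 (exact permutation p = 0.00221, adjusted p = 0.0232, rho = 0.881, p = 0.00724), and r = 0.905 without the 2 farthest lines. Bpifb1 and Bpifb4 gave r = 0.892 (exact permutation p = 0.00347, adjusted p = 0.0243, rho = 0.881, p = 0.00724, r = 0.806 without 2 lines). Members of these pairs lay side by side in the first case and in different parts of the cluster in the others.

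Bpifb1 and Bpifb5, also next to each other, gave r = 0.885 (exact permutation p = 0.00528, adjusted p = 0.0277, rho = 0.952, p = 0.00114, r = 0.787 without 2 lines). Bpifb1 and Bpifb3 gave r = 0.851 (exact permutation p = 0.00895, adjusted p = 0.0376, rho = 0.786, p = 0.0279, r = 0.812 without 2 lines). Bpifa1 and Bpifb3 gave r = 0.823 (exact permutation p = 0.0134, adjusted p = 0.0469, rho = 0.714, p = 0.0576, r = 0.857 without 2 lines). The remaining 4 pairs among these 5 genes failed the adjustment: Bpifa1 with Bpifb1 and with Bpifb4 (adjusted p = 0.0546 each, exact permutation), Bpifb3 with Bpifb5 (0.0599) and Bpifb4 with Bpifb5 (0.0696). By Spearman's rho only Bpifb1 with Bpifb5 passed the adjustment over 21 pairs (exact permutation, adjusted p = 0.0240).

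Bpifb9a gave r of -0.0111 with Bpifb1, -0.0871 with Bpifb3, -0.0862 with Bpifb4, 0.373 with Bpifa1 and 0.227 with Bpifb5. These values moved in both directions with the line left out. Without line 5 they were 0.440, 0.329, 0.403, 0.668 and 0.502 in that order, none past the exact permutation test. Without line 8 they were -0.433, -0.327, -0.406, 0.0843 and -0.0569. The pair Bpifb9a and Bpifb9b gave r = 0.614 (exact permutation p = 0.112, rho = 0.429, p = 0.299), which fell to 0.00512 without the 2 farthest lines. Bpifb9b gave r = 0.660 with Bpifa1 and 0.669 with Bpifb5 (exact permutation p = 0.0781 and 0.0750). None of these 3 passed the test.

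Within 1 sex fewer pairs passed, and the picture differed between pairs. Bpifb3 and Bpifb4 gave r = 0.952 in males alone and 0.808 in females alone. Bpifa1 and Bpifb5 gave 0.801 and 0.659, Bpifb1 and Bpifb5 0.847 and 0.757, and Bpifa1 and Bpifb3 0.716 and 0.786. Without the 2 farthest lines, r in females fell to 0.0478 for Bpifb3 with Bpifb4 and to 0.248 for Bpifa1 with Bpifb3. In males these pairs then gave 0.852 and 0.850. In females, r was then 0.717 for Bpifa1 with Bpifb5 and 0.566 for Bpifb1 with Bpifb5. Bpifb3 was low in females, with at most 48 counts (HR line 6). Bpifb1 with Bpifb4 gave 0.780 in males but 0.101 in females, and Bpifb1 with Bpifb3 gave 0.741 and 0.0528. After adjustment 2 pairs passed in males alone, Bpifb3 with Bpifb4 and Bpifa1 with Bpifb1 (adjusted p = 0.0156 each, exact permutation). Bpifa1 with Bpifb1 gave r = 0.911 in males and 0.183 in females, and had not passed over line means (r = 0.788). In females alone 0 pairs passed (exact permutation, lowest adjusted p = 0.107), where 5 passed unadjusted. With 7 lines, 0 to 5 pairs passed the adjustment depending on the line left out, and 0 passed without line 3 or without line 4.

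**Figure D3:**
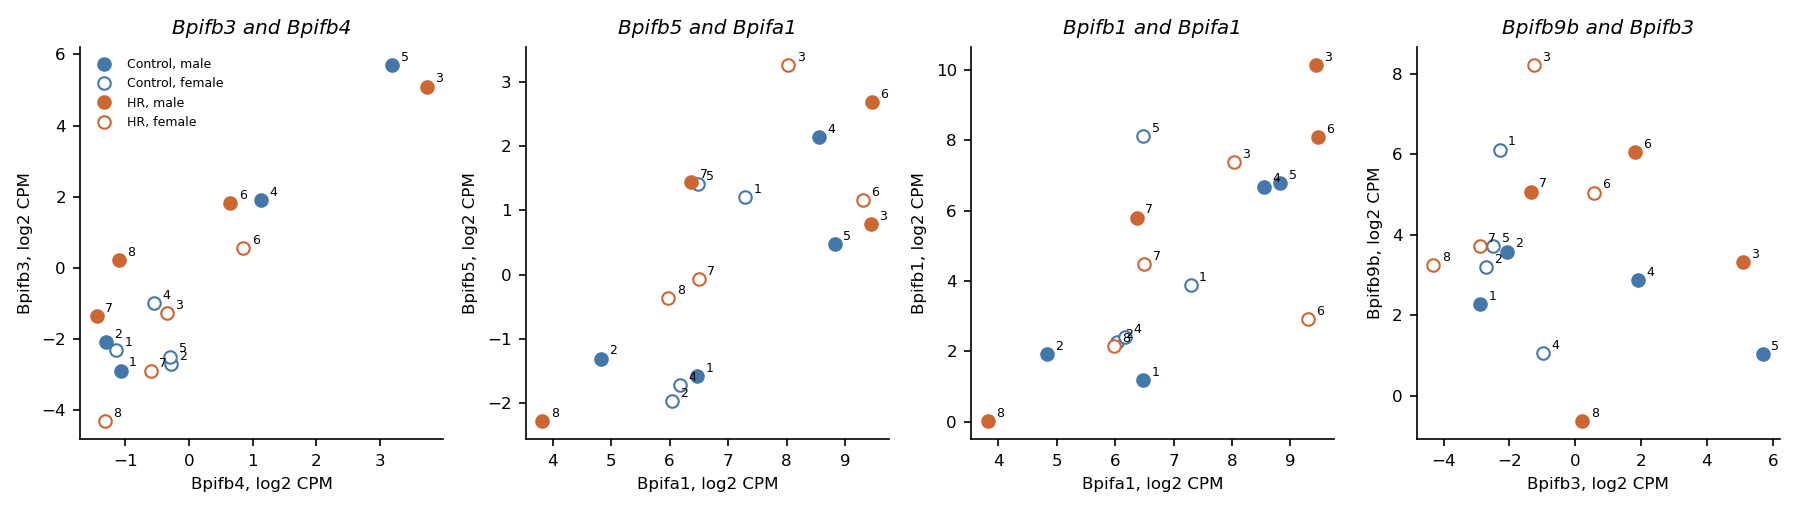
Log2 CPM of 1 member against another in each of the 16 libraries (filled, male; open, female; numbers, lines). Bpifb3 and Bpifb4 were highest in the males of lines 5 and 3, while Bpifb9b was highest in the line 3 female, where Bpifb3 was low.

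The genes with the most similar pattern were sought over the 16 libraries with the mean of each sex removed, as a description. For Bpifa1 these were Kcnj1 (r = 0.904), a potassium channel gene, Lcp1 (0.892), Ugt2a1 (0.891), Ankzf1 (0.888) and Plin5 (0.883). For Bpifb1 they were Lyz2 (0.956), the lysozyme gene of macrophages, Pax1 (0.951), Cd33 (0.933), Cabs1 (0.929) and Synm (0.903). Lyz2 and Bpifb1 were both highest in the HR line 3 male.

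For Bpifb3 the most similar genes were Pon1 (r = 0.956), Stoml3 (0.947), Syne4 (0.946), Cnga2 (0.937) and Ugt2a1 (0.928). Cnga2 and Stoml3 mark sensory neurons of the main olfactory epithelium, and Ugt2a1 its supporting and gland cells. Cnga2 stood at 5.20 CPM in the Control line 5 male and 3.66 in the HR line 3 male, and at 0 to 1.36 CPM elsewhere. Stoml3 stood at 7.56 and 5.06 CPM in those libraries. Both libraries were also the highest for Bpifb3 and Bpifb4. Cnga2 and Stoml3 gave at most 5.20 and 7.56 CPM, in a sum of 195 to 295 CPM for the 5 main olfactory neuron markers. Ugt2a1 gave at most 18.6 CPM, in a sum of 104 to 878 CPM for the 4 markers of supporting and gland cells. The sums of these lists thus hardly measure the single genes. Over the 8 lines, the neuron marker sum gave r = -0.810 with Bpifb3 and -0.835 with Bpifb4 (rho = -0.690 and -0.786, adjusted p = 0.0858 and 0.0700, exact permutation). The supporting and gland cell sum gave -0.151 and -0.317 (adjusted p = 0.874 and 0.668, exact permutation). The part of main olfactory tissue in the likeness of Bpifb3 was not tested. For Bpifb9b the likeness was lower, with Rptor (0.736), Wfdc1 (0.735), Zfp691 (0.735), Lyz1 (0.734) and Hsph1 (0.729).

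Marker lists of gland and neuron cells were summed per library and compared with each member over the 8 lines, 56 relations in all, with p-values adjusted over them. Gland products (16 of 19 listed genes in the tables, among them Obp2a, an odorant-binding protein of nasal mucus) summed to 2726 to 212111 CPM over libraries, with a median of 44395 CPM in Control and 43390 in HR libraries. They rose with Bpifb4 (r = 0.921, exact permutation p = 0.00315, adjusted p = 0.0299, rho = 0.857, p = 0.0107, r = 0.923 without 2 lines) and with Bpifa1 (r = 0.889, exact permutation p = 0.00397, adjusted p = 0.0317, rho = 0.905, p = 0.00456, r = 0.904). The other relations to gland products did not pass the adjustment, with r of 0.890 for Bpifb3, 0.806 for Bpifb1 and 0.768 for Bpifb5. Obp2a, Obp2b, Lcn3 and Lcn4 averaged 23311, 19745, 8862 and 4666 CPM over the 16 libraries, against 667 for Obp1a and 122 for Lcn11. The gland product sum was thus weighted towards its abundant genes.

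Markers of vomeronasal sensory neurons (3 of 4 with counts) summed to 2287 to 4501 CPM and ran against 3 members. The relation gave r = -0.947 with Bpifb4 (exact permutation p = 0.00126, adjusted p = 0.0299, rho = -0.905, p = 0.00456, r = -0.936 without 2 lines). It gave r = -0.944 with Bpifb1 (exact permutation p = 0.000818, adjusted p = 0.0299, rho = -0.952, p = 0.00114, r = -0.916). It gave r = -0.913 with Bpifb3 (exact permutation p = 0.00320, adjusted p = 0.0299, rho = -0.810, p = 0.0218, r = -0.935). Markers of main olfactory sensory neurons (5 of 5 tested) ran against Bpifb1 (r = -0.882, exact permutation p = 0.00533, adjusted p = 0.0373, rho = -0.833, p = 0.0154, r = -0.710 without 2 lines), in a sum of 195 to 295 CPM of which Cnga2 gave at most 5.20 CPM. Plasma cell markers (3 of 3 tested, 156 to 342 CPM) ran with Bpifb4 (r = 0.878, exact permutation p = 0.00280, adjusted p = 0.0299, rho = 0.738, p = 0.0458, r = 0.773 without 2 lines) and with Bpifb3 (r = 0.847, exact permutation p = 0.00164, adjusted p = 0.0299, rho = 0.929, p = 0.00223, r = 0.837). The plasma cell markers were Jchain, Mzb1 and Xbp1. In the test of lines within linetype, Xbp1 was called (F = 17.2, adjusted p = 0.00238 in edgeR). Jchain (adjusted p = 0.0839 in edgeR) and Mzb1 (0.377) were not called. Which of these markers carried the relations was not tested. The sums for goblet and club cells, multiciliated cells, supporting and gland cells of the main olfactory epithelium, and skeletal muscle gave no relation that passed the adjustment. In males alone and in females alone, r was -0.915 and -0.902 for the neuron markers with Bpifb1, -0.891 and -0.363 with Bpifb4, and -0.844 and -0.352 with Bpifb3. It was 0.853 and 0.687 for the gland products with Bpifa1 and 0.919 and 0.689 with Bpifb4. The main olfactory markers gave -0.724 and -0.879 with Bpifb1, and the plasma cell markers gave 0.954 and 0.165 with Bpifb3 and 0.875 and 0.271 with Bpifb4, so the relations of Bpifb3 and Bpifb4 to neuron and plasma cell markers were weak in females. By rho none of the 56 relations passed the adjustment (lowest adjusted p = 0.0625, exact permutation). Sums and members of a library are scaled to one library size, so they are not independent of each other. The part of this in the relations was not tested.

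HR and Control lines did not differ in any member at an adjusted p under 0.05. In a model with sex, edgeR called 4 of 16507 genes (0.0242%) and 0 of 7 members, while 1 member passed an unadjusted p under 0.05 (545 genes did in all, and DESeq2 called 30 genes and 0 members). The estimate was above 0 for 6 of the 7 members, with a median log2 fold change of 1.05, against 0.0025 over all genes tested. Members correlated over lines (median r = 0.669 over 21 pairs), so these estimates are not independent of each other, and that of Bpifb3 was 0.04.

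That 1 member was Bpifb9b, which averaged 30.5 ± 34.6 RPKM over HR lines and 8.21 ± 8.44 over Control lines (SD, n = 4 lines each). The log2 fold change was 1.98 (SE 0.88, adjusted p = 0.9997 in edgeR). HR line means of lines 3, 6, 7 and 8 were 80.2, 26.6, 12.5 and 2.78 RPKM, and Control line means of lines 1, 2, 4 and 5 were 20.7, 5.72, 2.54 and 3.86 RPKM, so the groups overlapped. The difference was 1.08 without line 3, and 0.86 when limma-voom treated each line as a random term.

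Bpifa1 averaged 338 ± 323 RPKM in HR and 178 ± 105 in Control lines, with a log2 fold change of 1.05 (SE 0.72, adjusted p = 0.9997 in edgeR), which was 0.34 without line 6. Bpifb5 gave the same difference, 1.05 (SE 0.79, adjusted p = 0.9997 in edgeR), and Bpifb1 1.09 (SE 1.45), which turned to -0.64 without line 3 and to -0.58 in females alone. Bpifb4 gave 0.43 (SE 0.78), which turned to -0.73 without line 3. Bpifb3 gave 0.04 (SE 1.17) and Bpifb9a -0.77 (SE 0.95), and the latter turned to 0.26 without line 1. The HR differences of Bpifb1, Bpifb4, Bpifb3 and Bpifb9a therefore had no stable direction.

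Between the sexes, Bpifb3 and Bpifb4 had the largest estimates, but no member passed the test. The model with linetype called 31 of 16507 genes (0.188%) and 0 of 7 members in edgeR, while 2 members passed an unadjusted p under 0.05, as did 1333 genes in all (8.08%). The median log2 fold change was -0.91 over the members and -0.00564 over all genes tested. Bpifb3 had a median of 1.30 RPKM in males (0.0546 to 29.9) and 0.0931 in females (0 to 0.883), and was higher in the male library in 7 of 8 lines. Its log2 fold change, female minus male, was -5.10 (SE 1.35, adjusted p = 0.208 in edgeR), and -3.67 with line as a block (adjusted p = 0.101), the fit that the pairing of libraries by line allows.

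Bpifb4 had a median of 0.474 RPKM in males and 0.294 in females, and the ranges overlapped. Its log2 fold change was -2.20 (SE 0.81, adjusted p = 0.455 in edgeR), which shrank to -1.02 with the block, to -1.16 without line 3 and to -1.57 without line 5. Bpifb9b went the other way in the fit, 1.76 (SE 0.88, adjusted p = 0.655 in edgeR), which was 0.70 without line 3 and 1.06 without line 1. By line it had no direction, as the female library was higher in 4 lines and the male library in 4. Main olfactory marker genes were also lower in females, 5 of 5 with a median log2 fold change of -0.40 (0 called in edgeR, 3 unadjusted), and the list summed to 221 to 295 CPM in males and 195 to 280 CPM in females. Markers of supporting and gland cells of that tissue were lower in females in 4 of 4 (median -0.86, 0 called in edgeR, 2 unadjusted). The part of that tissue in the difference of Bpifb3 was not tested.

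Whether the HR difference depended on sex was tested by an interaction term, which called 0 of 16507 genes (0.0%) and 0 members in edgeR (65 genes at an unadjusted p under 0.05, and 0 called by DESeq2). The largest estimate among members was that of Bpifb1 (-3.33, SE 2.49, adjusted p = 1.0 in edgeR).

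**Figure D4:**
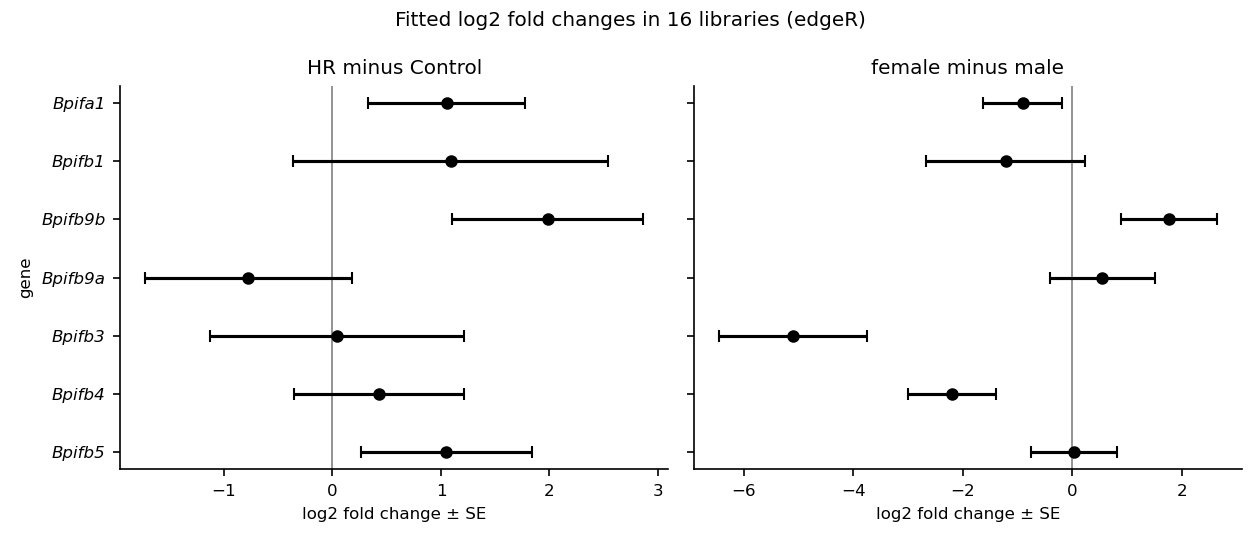
Log2 fold change (points) with its SE (bars) for each member from the edgeR fits of all 16 libraries, HR minus Control on the left and female minus male on the right. Bpifb9b lay highest in both panels (1.98 and 1.76), and Bpifb3 lay lowest for sex (-5.10).

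The split of reads between the vomeromodulin pair was steadier within a line than the level was. Bpifb9a took 1.91% to 68.8% of the counts of the pair over the 16 libraries. In males of Control lines 1, 2, 4 and 5 the share was 28.3%, 21.6%, 68.8% and 7.27%, and in females of these lines 26.8%, 15.8%, 37.2% and 1.91%. In males of HR lines 3, 6, 7 and 8 it was 7.86%, 10.2%, 8.65% and 14.8%, and in females 4.21%, 8.04%, 9.68% and 9.30%. Shares were thus high in Control lines 1, 2 and 4 in both sexes and low in Control line 5 and in all 4 HR lines.

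Male and female shares correlated at r = 0.938 over 8 lines (exact permutation p = 0.000198, rho = 0.929, p = 0.00223, r = 0.878 without 2 lines), whereas the log2 of the summed CPM of the pair gave r = 0.0602 (exact permutation p = 0.887, rho = 0.119, p = 0.793, r = -0.416 without 2 lines). The share was examined after its values were seen, and these 2 relations stand outside the families above. It rests on reads that matched GRCm38 with no mismatch. Whether the lines differ in sequence at the bases that separate the pair was not tested. Averaged over lines, the share was 9.09% ± 2.46 in HR and 26.0% ± 20.3 in Control lines (SD, n = 4 lines each, exact two-sided permutation p = 0.143, with 0.0286 the smallest possible). The summed log2 CPM was 4.38 ± 2.05 in HR and 3.47 ± 0.941 in Control lines (n = 4 each, exact permutation p = 0.429). Depth set the precision of a share, as the 27 counts of the HR line 8 male gave a 95% Wilson interval of 5.92% to 32.5% and the 6813 counts of the Control line 1 female one of 25.7% to 27.8%, covering counting error only.

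**Figure D5:**
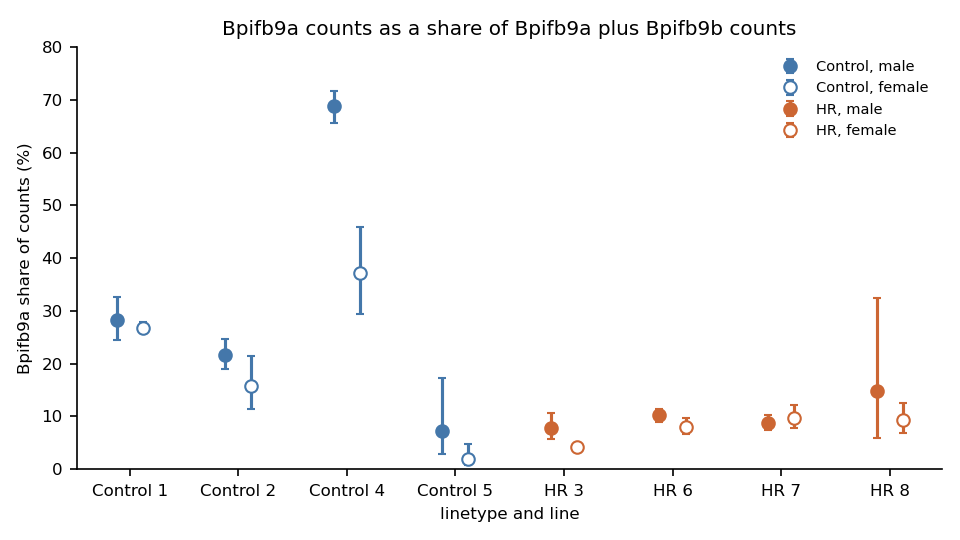
Bpifb9a counts as a percentage of Bpifb9a plus Bpifb9b counts, by linetype and line, for males (filled) and females (open), with 95% Wilson intervals. Control lines 1, 2 and 4 lay at 15.8% or above in both sexes, and the HR lines at 14.8% or below.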

How the data were processed

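The authors pooled VNOs of 3 mice per library, depleted rRNA, read 75 nt single ends, mapped them to GRCm38 with STAR (2.6.1d, no mismatch, 1 location) and obtained RPKM with Cuffdiff. The deposited count tables hold raw counts per gene and the deposited RPKM tables normalised levels per gene. The tool, annotation and strand setting of the counts are not given in the sources used here. The male count table also held 4 summary entries, which were left out. Of the 24411 gene entries of each count table, 2 names occurring more than once were left out. Columns were matched to lines by name.

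Counts were fitted with edgeR 4.0.16 (quasi-likelihood, TMM, filterByExpr with a minimum of 10, Benjamini-Hochberg over 16507 genes) in R 4.3.3, with DESeq2 1.42.0 and limma 3.58.1 as alternatives. The models were sex plus linetype, their interaction, and sex plus line within linetype. CPM used TMM-scaled totals, and log2 CPM a prior count of 2. The edgeR fits were also run on simulated counts, drawn for each library separately. For HR and sex, the simulated libraries of a line shared no spread. Those runs therefore cannot check the effect of counting both libraries of a line. Same-line male and female libraries deviated together (r over genes 0.321 to 0.708, own line best in 8 of 8), so line numbers paired them. The HR and sex fits had no line term, so their p-values rest on the spread over 16 libraries, in which both libraries of a line count separately. The test of lines uses the spread within lines. The fits with a random term per line, line sums or 1 sex take lines as replicates. Correlations used exact permutation of line means (scipy). The 75-base words and identities came from GENCODE M21 transcripts, promoters from RefSeq.

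The genes named were the members, other Bpif genes, Bpi and its relatives, the 5 genes most similar to the 4 members of highest RPKM, the genes flanking the cluster and marker lists. Members and lists were chosen with earlier results of these data known. Lines were left out in turn, and other scalings, filters and pseudocounts (1 and 0.1 RPKM) were tried.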

Additional observations from a re-analysis of the deposited data

How the results depend on the processing

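Calls over all genes depended on the tool: for HR against Control DESeq2 gave 30, limma-voom with a random term per line 0, line sums 0, males alone 0 and females alone 0 against 4, with 1 to 17 when a line was left out. For sex, DESeq2 gave 180, no filter on low counts 19, leaving out a line 13 to 25, and line as a replicate block 90 against 31, so the pairing raised the count. The interaction stayed at 0 under every alternative, the block included (0). For lines within linetype, DESeq2 called 7190 genes and 5 members against 4714 and 2, and leaving out a line gave 3076 to 4952 genes and 0 to 3 members. No member was called for HR, sex or interaction under any alternative. Correlated pairs numbered 6, with linetype means removed 10, in males alone 2, in females alone 0, and without a line 0 to 5. Log2 RPKM with 1 or 0.1 added gave 5 each.

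Among members, Bpifb3 (0.04 for HR) turned to -0.51 with line sums and -0.50 in males alone, and ran from -1.30 to 2.07 without a line, and Bpifb1 turned to -0.58 in females alone and ran from -0.64 to 2.96. Bpifb4 ran from -0.73 to 1.32 and Bpifb9a from -1.28 to 0.26. For sex, Bpifb5 (0.03) ran from -0.69 to 0.75 and Bpifb9a (0.55) from -0.65 to 1.38. Depth limits Bpifb2, Bpifb6 and the low libraries of Bpifb3, and uncertain assignment limits Bpifb9a and Bpifb9b. The cause of these changes was not tested.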

Other observations

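Other Bpif genes outside the 9 members were also examined. Bpifa2, known from saliva, stood out by line: it reached 7.61 and 11.7 RPKM in the male and female of Control line 4 and 3.65 and 10.6 RPKM in those of HR line 7, and 0 to 1.68 RPKM in the other 12 libraries. The lines differed within linetype (F = 22.9, adjusted p = 0.00108 in edgeR), and its male and female levels correlated at r = 0.846 over 8 lines (exact permutation p = 0.00645, adjusted p = 0.0580; rho = 0.786, p = 0.0279), though r was 0.439 without the 2 farthest lines. The HR difference was -0.26 on the log2 scale (SE 1.28, adjusted p = 0.9997 in edgeR).

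Bpifa6 was found almost wholly in the females of HR line 6 (1686 counts, 36.7 RPKM) and HR line 3 (411 counts, 10.3 RPKM), against 0 to 12 counts in each of the other 14 libraries, and it did not pass the filter on low counts. Bpifa3 gave 0 to 2 counts per library. Bpifc on chromosome 10 was low, at 0.134 to 1.13 RPKM, with an SD of log2 CPM of 0.687, which was below those of the 7 members tested and above that of 89.36% of genes tested.

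Of the BPI relatives and the genes of lipopolysaccharide recognition, Bpi itself gave 0 to 3 counts per library. The 5 tested genes, Lbp, Pltp, Cd14, Tlr4 and Ly96, had SDs of log2 CPM of 0.333 to 0.549, below those of all 7 members tested. None was called for HR against Control, with log2 fold changes of -0.25 to -0.10.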
